A study of Mus musculus with 4 samples.

Results

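The cells described here are MK keratinocytes whose clones held a larger or a smaller share of a second population, Diff_MK, than of MK itself: 1674 MK cells in 34 clones, out of 7175 MK cells that passed filters, of which 4560 were assigned to a clone. A clone is the set of cells that share a leading lineage tag, a heritable sequence read as cDNA and matched to the cell's RNA by its cell barcode. Clones were chosen by their cell numbers alone. Cells needed 1000 or more genes and at most 15% mitochondrial UMIs, and a leading tag with 3 or more counts and at least 2 times the next. Among 81 tags that led in both libraries, 46 had 10 or more MK cells. For these the share of assigned Diff_MK cells was divided by the share of assigned MK cells. Clones with a ratio of 1.5 or more are called expanding (12 clones, 905 MK cells) and those with a ratio of 0.67 or less shrinking (22 clones, 769 MK cells). The remaining 12 clones, with 433 MK cells, lay between the cut-offs. The names expanding and shrinking describe this ratio and nothing else.

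The study recorded heritable tags and single-cell transcriptomes together in MK, a mouse keratinocyte cell line. There was 1 RNA and 1 tag library each of Diff_MK and of MK cells, with no replicate cultures. Every sample is labelled with the treatment Dox, and all were sorted for GFP, so both clone groups share the treatment, the line, the sort and the capture. The labels say neither what Diff stands for nor which sample came first. Each clone was summed within its library and treated as 1 observation there. The p-values of comparisons within a library measure the spread between clones of a single culture and library. Those for the difference between libraries use the sums of each clone from both unreplicated libraries. No p-value below measures a spread between cultures.

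In the epidermis, basal keratinocytes that make the keratins Krt5 and Krt14 divide and supply the layers above them. Spinous cells switch to Krt1 and Krt10, and granular cells make the cornified envelope from loricrin and small proline-rich proteins, while Krt6a and Krt16 mark activated or wounded epidermis. A heritable tag lets cells that descend from 1 tagged ancestor be counted as a clone, so a clone's share can be set beside the transcriptomes of its members.

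Each tag begins with a stretch common to the tags, the left flank, and goes on into a second one, the right flank, at a point that differs between clones. The sequences below are shown because they identify the expanding clones with the highest ratios (Tag6 and Tag62), the largest clone (Tag1), the clone just inside each cut-off (Tag10 and Tag4) and the shrinking clones with the lowest ratios (Tag7, Tag42 and Tag20). They are printed 5′ to 3′ as deposited, in lower case, with the bases that match neither flank in capitals. Where the construct sits in the mouse genome is not given in the labels or files used here.
Expanding clone Tag6: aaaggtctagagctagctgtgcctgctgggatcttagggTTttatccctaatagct
Expanding clone Tag62: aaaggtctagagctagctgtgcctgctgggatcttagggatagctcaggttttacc
Expanding clone Tag1: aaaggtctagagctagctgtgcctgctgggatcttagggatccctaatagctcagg
Expanding clone Tag10: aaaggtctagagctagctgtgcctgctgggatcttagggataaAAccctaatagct
Shrinking clone Tag4: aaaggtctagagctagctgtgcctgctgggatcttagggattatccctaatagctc
Shrinking clone Tag7: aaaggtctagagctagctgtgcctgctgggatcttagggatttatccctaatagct
Shrinking clone Tag42: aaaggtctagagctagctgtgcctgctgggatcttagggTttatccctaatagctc
Shrinking clone Tag20: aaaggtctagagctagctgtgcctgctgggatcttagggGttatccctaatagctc

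Clones are named by their tag in the MK library. Tags with no base in capitals, such as those of Tag62, Tag1 and Tag7, marked 5 of the 12 expanding and 5 of the 22 shrinking clones. The number of bases in capitals averaged 1.17 ± 1.11 in expanding and 1.86 ± 1.42 in shrinking clones (SD over clones), a difference that did not pass (two-sided permutation test, p = 0.192, adjusted p = 0.555 over 12 measures, a measure added after seeing the data). Whether any tag arose in more than 1 cell was not tested. In 4 expanding and 1 shrinking clone the Diff_MK tag was deposited at another length and matched over the shorter one.

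The clone shares, which chose the groups and are given without a test, ran over a wide range. Expanding clones made up 19.8% of assigned MK cells and 50.3% of assigned Diff_MK cells, and shrinking clones 16.9% and 5.33%. The highest ratio, 6.38, belonged to Tag6, with 75 MK and 498 Diff_MK cells. The largest clone, Tag1, had 280 MK and 539 Diff_MK cells and a ratio of 1.85. At the other end Tag20 had 33 MK cells and 1 Diff_MK cell, a ratio of 0.0291, and Tag7 had 67 MK and 4 Diff_MK cells, a ratio of 0.0573. Near the upper cut-off, Tag10 lay inside at 1.61 and Tag58 outside at 1.44, and near the lower one Tag4 lay inside at 0.584 and Tag214 outside at 0.699. Expanding clones had 11 to 280 MK cells (median 48) and shrinking clones 10 to 97 (median 32).

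**Figure D1:**
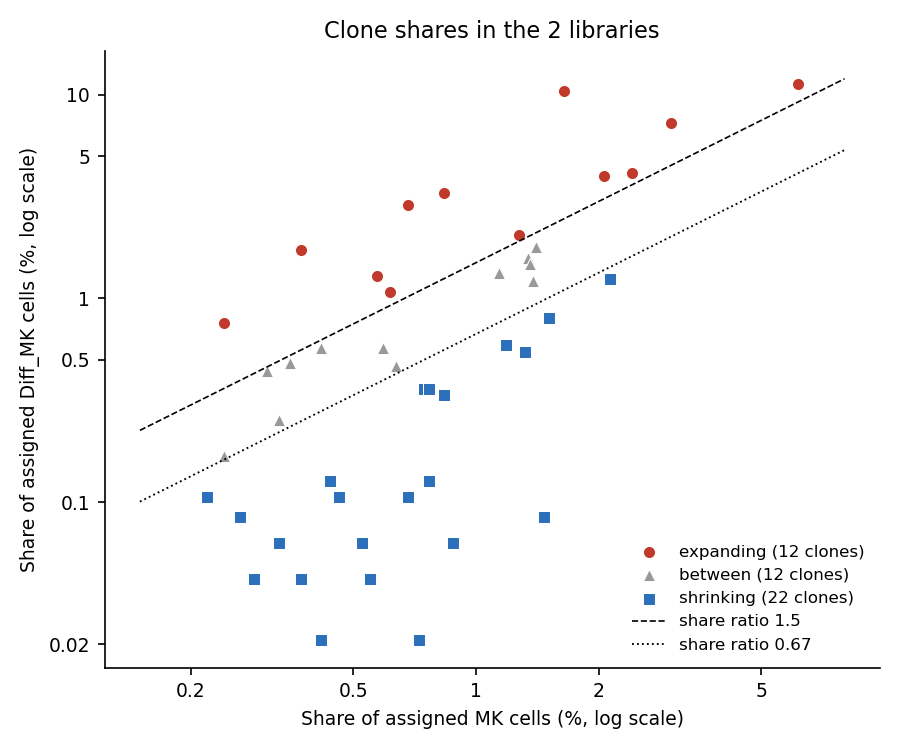
Share of each of the 46 clones among assigned Diff_MK cells (vertical axis, %, log scale) against its share among assigned MK cells (horizontal axis, %, log scale), with expanding clones as circles, clones between the cut-offs as triangles and shrinking clones as squares. The dashed and dotted lines mark share ratios of 1.5 and 0.67, and shrinking clones reach down to a ratio of 0.0291.

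Depth differed little between the groups in MK cells. Median UMIs per cell averaged 15170 ± 630 over expanding and 15201 ± 749 over shrinking clones, median genes 3804 ± 124 and 3853 ± 106, and mitochondrial UMIs 5.32 ± 0.229% and 5.47 ± 0.30%. Of 11 measures in both libraries none passed adjustment by the permutation test of means. The closest was the share of tag counts taken by the leading tag in Diff_MK cells, at 37.0 ± 4.05% in 12 expanding and 33.4 ± 2.97% in 17 shrinking clones (permutation p = 0.00476, adjusted p = 0.0524). Keratinocyte markers, among them Krt5, Krt14 and Trp63, summed to 10524 to 16479 CPM (a clone's counts for a gene scaled to its total) in expanding and 8984 to 15560 CPM in shrinking clones. Summed melanocyte, fibroblast, immune and endothelial markers reached at most 9.62 CPM in any expanding and 23.4 CPM in any shrinking MK clone, and Merkel cell markers 22.5 and 41.9 CPM. The libraries shared 14 cell barcodes, 1 of them in a clone described here.

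No gene passed the test between the MK cells of expanding clones and those of shrinking clones. Of 5855 genes tested with edgeR's quasi-likelihood test, 0 passed an adjusted p of 0.05 (0%), and the smallest adjusted p was 0.9999. At an unadjusted p under 0.05 there were 197 genes (3.36%), 108 higher (1.84%) and 89 lower (1.52%) in expanding clones. DESeq2 and limma-voom also called 0 genes, with 162 and 185 genes under 0.05 unadjusted. The median log2 fold change over all genes was -0.0024, and the largest difference of any gene was 0.66 on the log2 scale. For 99.5% of the genes tested, the 95% confidence interval of the fold change lay within 1.5-fold in either direction. The variation between clones beyond counting error was small, with a common biological coefficient of variation of 6.95%. Differences below these intervals, in genes too low to be tested, or in rare cells of a clone were not detectable at this depth.

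The gene with the smallest p was Sprr1b (chromosome 3, 92436809 to 92438789, GRCm38, minus strand), which encodes a small proline-rich precursor of the cornified envelope. Its level in MK cells ran from 399 through a median of 531 to 813 CPM over expanding clones, and from 298 through 447 to 599 CPM over shrinking clones. The groups overlapped, but 10 of 12 expanding clones lay above the median of the shrinking clones and 4 lay above all of them. The log2 fold change was 0.31 ± 0.078 (SE; edgeR adjusted p = 0.9999). It passed when only clones with ratios of 2 or more and 0.5 or less were compared (0.47, edgeR adjusted p = 0.0121). It also passed in a single random draw of 10 cells from each clone (0.68, edgeR adjusted p = 0.0442).

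Krt16 (chromosome 11, 100246091 to 100248902, GRCm38, minus strand), a keratin of activated epidermis, had the largest fold change of all genes tested. It ran from 24.6 through a median of 192 to 480 CPM in expanding and from 31.8 through 91.0 to 411 CPM in shrinking MK clones. Both groups held clones near the bottom and near the top of this range, and 8 of 12 expanding clones lay above the shrinking median, 1 of them above all shrinking clones. The log2 fold change of 0.66 ± 0.24 did not pass (edgeR adjusted p = 0.9999). In a single random draw of 10 cells per clone it was 1.85 and passed (edgeR adjusted p = 0.0442), and no other draw was made. Among the other stress-associated genes, Krt6a had medians of 1896 CPM in expanding and 1821 CPM in shrinking clones, and Slpi, a secreted protease inhibitor, had 494 and 642 CPM. For Slpi, no expanding clone lay above the shrinking median (log2 fold change -0.27 ± 0.10, edgeR adjusted p = 0.9999).

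On the lower side the smallest p belonged to Snx2, a sorting nexin of endosomal retrieval. It ran from 16.4 through 29.6 to 39.2 CPM in expanding and from 21.2 through 38.3 to 54.2 CPM in shrinking clones, a log2 fold change of -0.38 ± 0.10 (edgeR adjusted p = 0.9999). Only 1 of 12 expanding clones lay above the shrinking median, and 10 of 22 shrinking clones lay above every expanding clone. Other genes on this side were the splicing factor subunit Sf3a3 (74.5 and 86.0 CPM, medians of expanding and shrinking clones), the Mediator subunit Med15 (20.5 and 24.5 CPM), the deadenylase Cnot6 (49.2 and 57.4 CPM) and the RNA exosome subunit Exosc7 (75.7 and 88.6 CPM). Akirin1, the ubiquitin ligase Herc2 and the lipase Abhd12 complete the 8 lowest p on this side, with log2 fold changes of -0.29, -0.36 and -0.26. On the higher side, Sprr1b was followed by Zmym5 (20.9 and 15.8 CPM), Coprs (28.9 and 24.0 CPM), the Wnt co-receptor Lrp6 (24.5 and 17.2 CPM), Zfp1, Rspry1, the ubiquitin ligase Rnf19a and the SNARE protein Use1, with log2 fold changes of 0.23 to 0.45. None of these 16 genes passed adjustment.

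**Figure D2:**
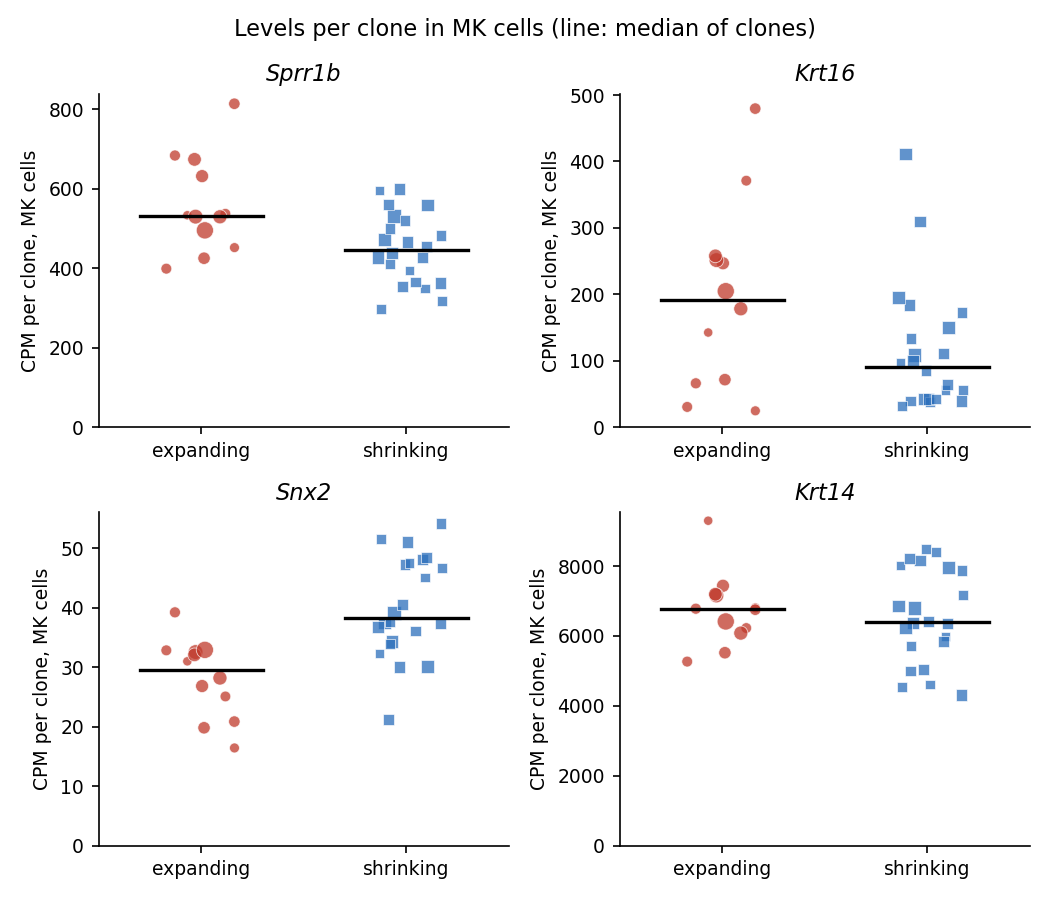
Levels of 4 genes in MK cells (CPM of the summed counts of a clone), with expanding clones as circles on the left and shrinking clones as squares on the right; point area grows with the number of cells and lines mark medians. Sprr1b, Krt16 and Snx2 overlap between groups, and Krt14 has medians of 6767 and 6399 CPM.

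No gene of the keratinocyte layers passed in MK cells. Of 16 basal genes tested 0 passed, 4 had a positive fold change, and the median log2 fold change was -0.024, beside 2851 positive of 5855 and a median of -0.0024 over all genes tested. Krt14 had medians of 6767 CPM in expanding and 6399 CPM in shrinking clones (log2 fold change 0.05, 95% confidence interval -0.10 to 0.20), and Krt5 had 1231 and 1170 CPM (0.04, -0.09 to 0.17). The laminin chain Lama3 had 146 and 163 CPM and was the single basal gene under an unadjusted p of 0.05. The 8 spinous genes had a median of 0.032, with Krtdap at 573 and 532 CPM, Sbsn at 501 and 470 CPM, and Krt10 at 25.4 and 20.5 CPM. The 7 granular and cornified envelope genes tested had a median of 0.069, with Sprr1b alone under 0.05 and Spink5, an epidermal protease inhibitor, at 406 and 360 CPM and a log2 fold change of 0.0074. Reads of keratins and small proline-rich genes can be split between similar members, so single values in these families are uncertain.

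No gene of the cell cycle lists passed either. The 28 G1/S genes had a median log2 fold change of -0.012 and the 32 G2/M genes of -0.0051, and in neither list was a member under an unadjusted p of 0.05. The ribonucleotide reductase subunit Rrm2 had medians of 300.0 CPM in expanding and 299.5 CPM in shrinking clones, the replication clamp Pcna 257 and 256 CPM, and Ube2c, a ubiquitin-conjugating enzyme of mitosis, 485 and 470 CPM. The CDK inhibitor Cdkn1a had 159 and 156 CPM, with a 95% confidence interval of its log2 fold change from -0.14 to 0.17. Cdkn2a, which encodes p16 and p19ARF, had 27.9 and 23.3 CPM (log2 fold change 0.27 ± 0.12, edgeR adjusted p = 0.9999). The 12 p53 target genes tested had a median of 0.019.

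In the signalling, stress and metabolic lists 0 members passed. The median log2 fold change was -0.0089 over 6 Notch pathway genes, -0.033 over 8 TGF-beta and YAP targets, 0.029 over 8 EGF receptor and ligand genes, -0.035 over 7 inflammatory genes and -0.056 over 5 interferon and MHC class I genes. Heat shock (12 genes, 0.021), ER stress (19 genes, 0.012), glycolysis and hypoxia (18 genes, 0.0049), cholesterol synthesis (19 genes, -0.018), NRF2 targets (15 genes, -0.0036) and ribosome biogenesis (22 genes, -0.020) had medians in the same range. The furthest median, 0.20, came from 3 IGF-binding proteins, led by Igfbp3 at 74.3 and 60.4 CPM (log2 fold change 0.25 ± 0.093, edgeR adjusted p = 0.9999). The chemokine Cxcl5 had 1409 and 1544 CPM, and the growth-state gene Hmga2 had 470 and 468 CPM. Lists that earlier work on these libraries found higher or lower in Diff_MK cells had MK medians of -0.048 and -0.028, and were chosen on these samples.

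**Figure D3:**
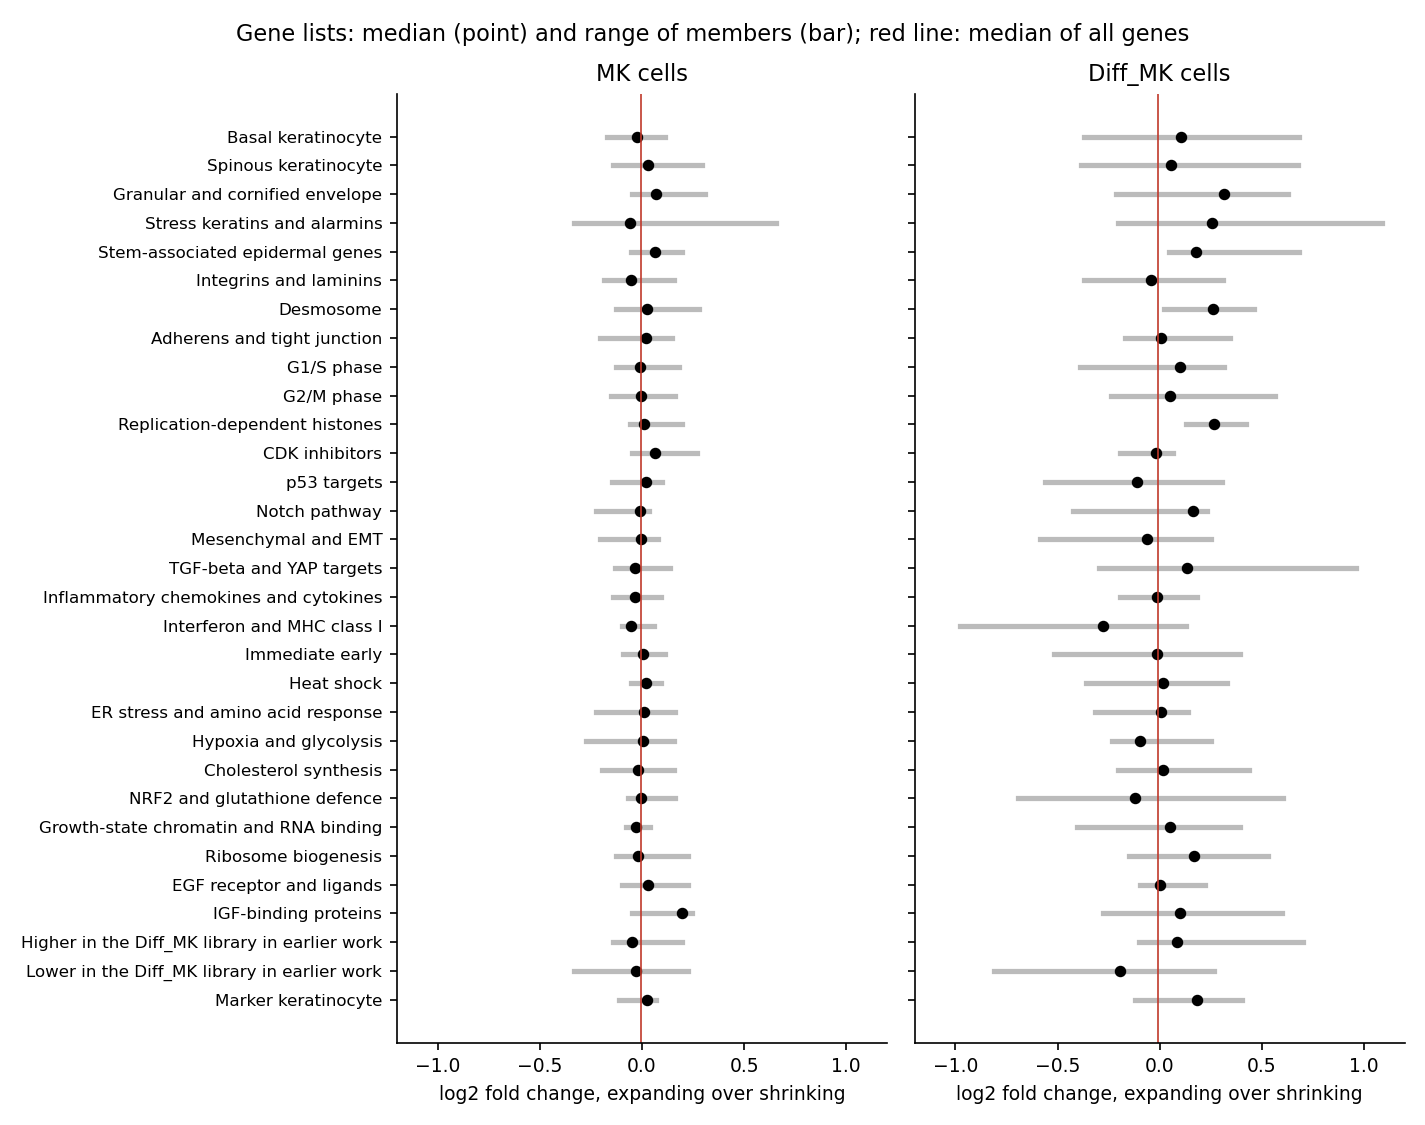
Median (point) and range (bar) of the log2 fold change of the members tested in each gene list with 3 or more members tested in both libraries, expanding over shrinking clones, in MK cells (left) and Diff_MK cells (right); the red line is the median of all genes tested. Lists with fewer are not drawn, among them the simple epithelial keratins, with a median of -0.35 in Diff_MK cells. In MK cells the medians lie between -0.057 and 0.20.

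Some genes varied widely among the clones of each group. Over all 46 clones, the most variable genes at 50 CPM or more in MK cells were the loricrin gene Lor, Krt16 and the simple epithelial keratin Krt8, with gene-wise biological coefficients of variation of 72.6%, 68.3% and 62.9%. Lor ran from 8.21 through 54.1 to 89.6 CPM in expanding and from 4.75 through 37.8 to 270.1 CPM in shrinking clones, and its highest value over all 46, 381 CPM after TMM scaling, was in Tag23, which lay between the cut-offs. Krt8 ran from 6.20 through 66.2 to 128 CPM in expanding and from 9.85 through 54.7 to 491 CPM in shrinking clones. Sprr2d, Ly6d and Psca, all genes of differentiating or surface epithelium, followed at 52.2%, 49.9% and 38.2%. Of the 6 most variable genes, the highest clone was a shrinking one for Krt8 and one between the cut-offs for the others.

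Using the ratio as a continuous measure over all 46 clones also gave 0 calls. Of 6409 genes tested for a slope on the log2 share ratio in MK cells, 0 passed in edgeR (0%) and 0 in limma-voom, with 243 genes (3.79%) and 253 genes under an unadjusted p of 0.05. Of the 243, 103 had a positive slope (1.61%) and 140 a negative one (2.18%). The smallest p again belonged to Snx2, with a slope of -0.11 ± 0.023 log2 units per doubling of the ratio, and Sprr1b, with 0.088 ± 0.019. Both had an edgeR adjusted p of 0.0566. With all genes of 10 or more counts in the test, Sprr1b passed (edgeR adjusted p = 0.0186) together with Ptgs2os2, Gsta1 and Ankrd54, which lie outside the rule for named genes and were picked after their values were seen.

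The Diff_MK cells of the same clones, whose gene levels the choice of clones did not use, had more genes at a low unadjusted p, though no gene passed. The comparison set 12 expanding clones with 2388 Diff_MK cells against the 17 shrinking clones that had 3 or more Diff_MK cells, 245 cells in all. Of 5065 genes tested, 0 passed in edgeR (0%, smallest adjusted p = 0.0784), but 553 (10.9%) had an unadjusted p under 0.05, 173 higher (3.42%) and 380 lower (7.5%) in expanding clones. DESeq2 called 40 genes, 4 higher and 36 lower, with Dsc3 and Hes6 among them (adjusted p = 0.0311 and 0.0339). The common biological coefficient of variation was 15.2%. The number of calls in edgeR turned on single clones: it was 64 without shrinking Tag11, 33 without shrinking Tag4, 24 without expanding Tag2 and 16 without expanding Tag30. The groups differed in size here, with medians of 146.5 Diff_MK cells per clone in all expanding and 5 in all 22 shrinking clones, and the part of this in the distribution of p was not tested. With clones of 10 or more Diff_MK cells only, 12 expanding and 7 shrinking, 0 genes passed in edgeR and 689 had an unadjusted p under 0.05.

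**Figure D4:**
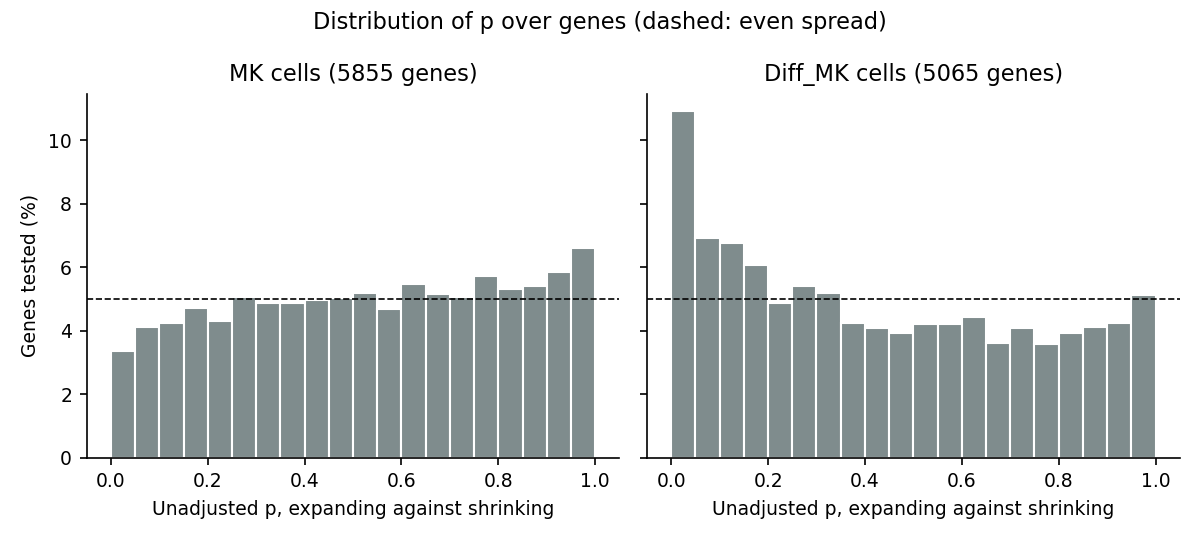
Share of genes tested (vertical axis, %) by unadjusted edgeR p (horizontal axis) for expanding against shrinking clones, in MK cells (left, 5855 genes) and Diff_MK cells (right, 5065 genes); the dashed line is an even spread. The lowest class holds 3.36% of genes in MK cells and 10.9% in Diff_MK cells.

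Among desmosome genes in Diff_MK cells, the desmocollin Dsc3 had the smallest p. It ran from 200.2 through 231 to 326 CPM in expanding and from 41.5 through 174 to 232 CPM in shrinking clones, and 5 of 12 expanding clones lay above every shrinking clone (log2 fold change 0.45 ± 0.11, edgeR adjusted p = 0.0821). All 10 desmosome genes tested had a positive fold change, with a median of 0.26, and 5 of them had an unadjusted p under 0.05. Over all genes tested in Diff_MK cells, 2469 of 5065 were positive, the median was -0.0062 and 10.9% had an unadjusted p under 0.05. Of the 10, Perp, a desmosomal protein and p53 target, had 862 and 728 CPM (0.30 ± 0.12), Dsc2 had 43.3 and 30.4 CPM (0.46 ± 0.17) and desmoplakin (Dsp) 628 and 542 CPM (0.19 ± 0.14). Among integrins, Itgb1 had a log2 fold change of -0.37 ± 0.12 and Itgb4, the hemidesmosomal partner of alpha-6, of 0.31 ± 0.10. The adhesion molecule Epcam had 257 and 389 CPM (-0.48 ± 0.11, edgeR adjusted p = 0.0784). In MK cells Dsc3 had medians of 136 and 137 CPM and Epcam 412 and 410 CPM.

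No differentiation gene among those tested passed in Diff_MK cells. Of 8 granular and cornified envelope genes tested, 6 were positive, with a median of 0.31, beside 2469 of 5065 and -0.0062 over all genes. Lor and the trichohyalin gene Tchh were too low to be tested here. Their medians were lower in expanding than in shrinking clones, at 9.01 and 18.6 CPM and at 5.34 and 15.2 CPM. Krt10, also not tested here, had 21.9 and 18.8 CPM. Sprr1b ran from 759 through 1163 to 1464 CPM in expanding and from 167 through 942 to 1319 CPM in shrinking clones (0.46 ± 0.16, edgeR adjusted p = 0.226). For Sprr1b, 10 of 12 expanding clones lay above the shrinking median, the same number as in MK cells. Krt16 had medians of 616 CPM in expanding and 94.3 CPM in shrinking clones (1.09 ± 0.40, edgeR adjusted p = 0.251), with expanding clones Tag78 and Tag30 at 14.7 and 61.1 CPM and shrinking Tag11 at 942 CPM. The basal gene Krt15, with 28 UMIs in all expanding and 19 in all shrinking MK clones, had 634 and 217 CPM (0.68 ± 0.43), and Lgals7, an epithelial galectin, 794 and 345 CPM (0.68 ± 0.39). Krt8 ran from 0 through 38.1 to 159 CPM in expanding and from 0 through 21.8 to 2599 CPM in shrinking clones (-1.70 ± 0.63, edgeR adjusted p = 0.261). Its medians went the other way from its fold change, with 8 of 12 expanding clones above the shrinking median. Only 4 of 17 shrinking clones lay above every expanding clone.

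Follistatin (Fst), a secreted activin antagonist, ran from 59.6 through 144 to 300.05 CPM in expanding and from 0 through 62.3 to 334 CPM in shrinking Diff_MK clones (1.04 ± 0.26, edgeR adjusted p = 0.0784), against MK medians of 160 and 154 CPM. In Diff_MK cells, 11 of 12 expanding clones lay above the shrinking median. The Ras exchange factor Sos1 had 23.6 and 44.2 CPM (-0.84 ± 0.18), the ligand Wnt6 27.9 and 41.5 CPM (-0.83 ± 0.19) and the carbonic anhydrase Car12 23.5 and 37.5 CPM (-0.75 ± 0.17), each with an edgeR adjusted p of 0.0784. Hes6, a bHLH repressor family member, ran from 13.8 through 28.0 to 79.2 CPM in expanding and from 15.2 through 81.8 to 150 CPM in shrinking clones (-1.12 ± 0.26). No expanding clone exceeded the shrinking median of Hes6. The other lowest p on this side belonged to Coq10b, Pcgf5 and the proteasome activator Psme4, with log2 fold changes of -0.99, -0.79 and -0.64.

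Ribosome biogenesis genes were positive in 18 of 21 in Diff_MK cells, with a median of 0.17 and 4 under an unadjusted p of 0.05, led by nucleolin (Ncl) at 1165 and 924 CPM (0.35 ± 0.090, edgeR adjusted p = 0.0863). Over all genes tested in Diff_MK cells, 2469 of 5065 were positive, the median was -0.0062 and 553 (10.9%) had an unadjusted p under 0.05. In MK cells 6 of 22 ribosome biogenesis genes were positive, beside 2851 of 5855 genes tested, and the difference between the libraries was not tested for the list. Nol11 and Mrto4, which act in ribosome assembly, had 0.42 ± 0.12 and 0.31 ± 0.097. All 6 replication-dependent histones tested were positive, with a median of 0.27, to be read beside the same shares over all genes, including Hist1h1b at 174 and 119 CPM. The G1/S and G2/M lists had medians of 0.099 and 0.052. Among 5 interferon and MHC class I genes the median was -0.28, led by H2-D1 at 182 and 365 CPM (-0.89 ± 0.23, edgeR adjusted p = 0.0821). Of the 5, 2 were positive, among them Ifitm3 at 378 and 391 CPM (0.10 ± 0.16). The 12 p53 targets tested had a median of -0.11 with 4 positive, and Gadd45a among them had 39.8 and 73.7 CPM (-0.56 ± 0.18).

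The difference between the contrast in MK cells and that in Diff_MK cells was tested directly, with clone as a block over all 34 clones, the 5 shrinking ones with under 3 Diff_MK cells included. Of 9021 genes, 14 passed in edgeR (0.155%), 11 with a higher contrast in MK cells (0.122%) and 3 with a lower one (0.0333%). At an unadjusted p under 0.05 there were 1032 genes (11.4%), 274 higher (3.04%) and 758 lower (8.4%). The low-count filter, applied to the sums of both libraries, let in genes that the filter of the Diff_MK fit had left out. Of the genes that passed, Lor, Tchh, Mgat4a, Tmem62, Pkdcc, Plod2, Fzd4 and 9530059O14Rik were not tested in the Diff_MK fit. The filter asks for a high level in only a few sums. Pkdcc, Fzd4 and 9530059O14Rik reached 93.8, 43.2 and 43.2 CPM in shrinking Diff_MK clones of 3 or more cells. In expanding clones of either library they reached at most 10.3, 9.62 and 10.3 CPM. Their entry into the test was thus tied to shrinking clones, and their calls are not independent of the filter. The scale of the fit of the difference was shifted, with a median of -0.093 over all genes. With RLE scaling the median was 0.022, the split of calls was 15 and 0, and 11 of the 14 genes still passed. The 3 that did not were Dsc3, Gpr137b and Ppp1r10, those with a lower contrast. Lor (chromosome 3, 92080271 to 92083142, GRCm38, minus strand) had the smallest p, with a difference of 2.24 ± 0.37 log2 units (edgeR adjusted p = 6.66e-04). In MK cells Lor had a log2 fold change of 0.23 ± 0.25. In Diff_MK cells it ran from 4.26 through 9.01 to 30.6 CPM in expanding and from 0 through 18.6 to 619 CPM in shrinking clones, and 8 of the 17 shrinking clones lay above every expanding clone. The highest of them, Tag7 and Tag18 at 619 and 472 CPM, had 4 and 6 Diff_MK cells with 33 and 42 Lor UMIs.

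Trichohyalin (Tchh), another gene of cornifying cells, had a difference of 1.66 ± 0.38 (edgeR adjusted p = 0.0384) and Diff_MK medians of 5.34 CPM in expanding and 15.2 CPM in shrinking clones. Hes6 had a difference of 1.001 ± 0.22 and the integrin-linked kinase Ilk 0.74 ± 0.18, with Ilk at 49.3 and 73.7 CPM in Diff_MK and 104 and 90.9 CPM in MK cells. Dsc3 had a difference of -0.68 ± 0.15 (edgeR adjusted p = 0.0384), which did not pass with RLE scaling. With clones of 10 or more Diff_MK cells only, 0 genes passed in edgeR with 629 at an unadjusted p under 0.05, and the differences were 2.01 for Lor, 1.07 for Hes6 and -0.40 for Dsc3 (edgeR adjusted p = 0.120, 0.204 and 0.436).

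**Figure D5:**
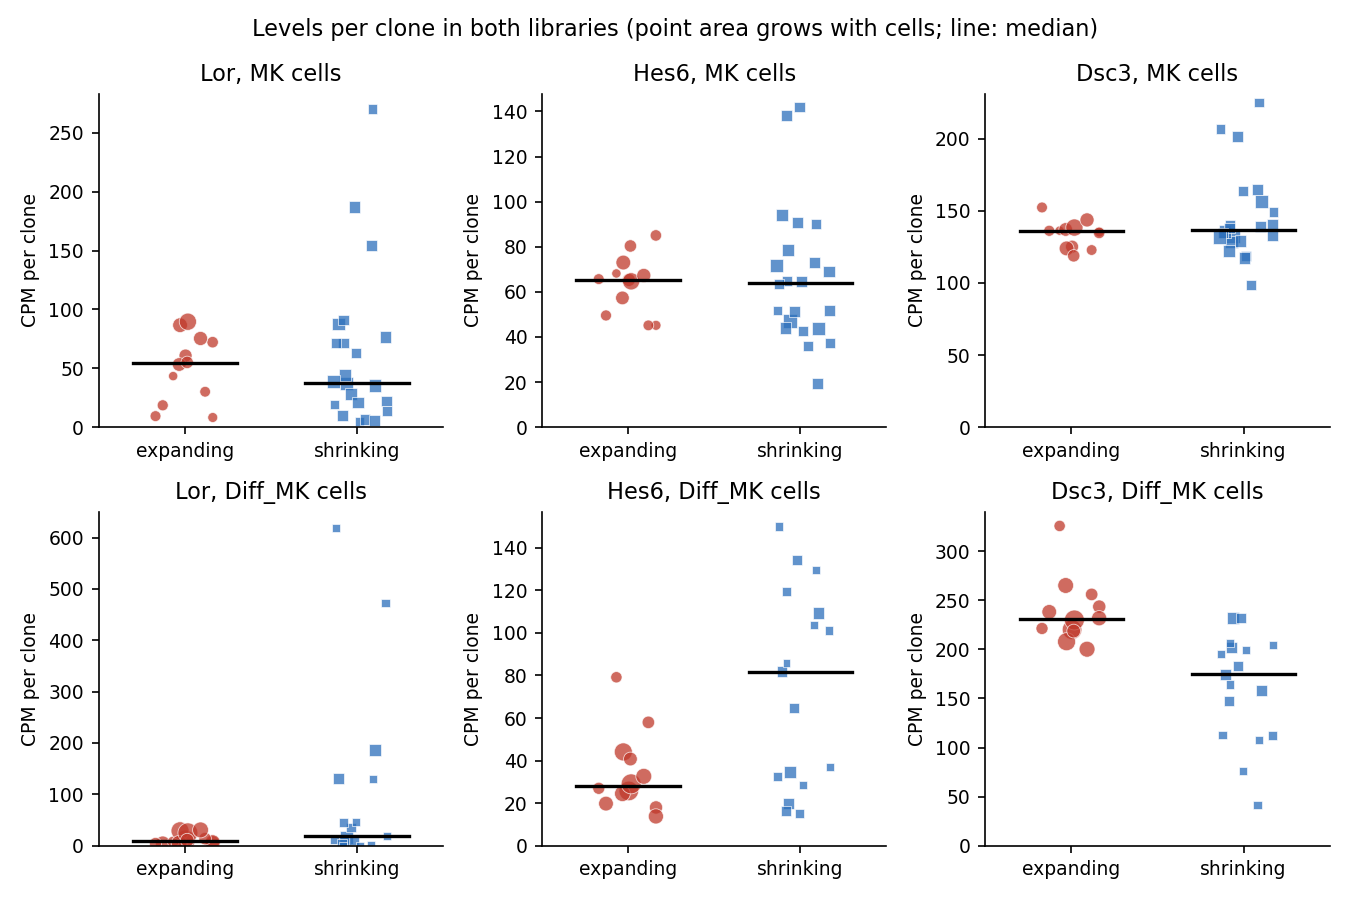
Levels of Lor, Hes6 and Dsc3 (CPM of the summed counts of a clone) in MK cells (top) and in Diff_MK cells of clones with 3 or more such cells (bottom), expanding clones as circles on the left and shrinking clones as squares on the right; point area grows with the number of cells and lines mark medians. For Hes6 the medians are 65.5 and 64.0 CPM in MK cells and 28.0 and 81.8 CPM in Diff_MK cells.

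Over the 4971 genes tested in both libraries, the MK and Diff_MK fold changes of the same clones had a Pearson correlation of 0.064 and a Spearman correlation of 0.067, given as a description across genes that share clones but not cells, and 52.8% of genes had the same sign. Of 173 of these genes under an unadjusted p of 0.05 in MK cells, 113 had the same sign in Diff_MK cells. A further unadjusted p under 0.05 in Diff_MK cells was found for 12 of the 173 with the same and 5 with the opposite sign. Over all 5065 genes tested in Diff_MK cells, 553 (10.9%) were under 0.05, so the overlap is to be read beside that share. Sprr1b, Krt16 and Igfbp3, with 0.31, 0.66 and 0.25 in MK cells and 0.46, 1.09 and 0.60 in Diff_MK cells, were among the 12.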

How the data were processed

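MK and Diff_MK cells were profiled with droplet RNA libraries and matching tag libraries. The deposited counts are raw UMI counts per gene and cell and raw counts per tag and cell, which the file headers and the submitters' processing notes trace to Cell Ranger 6.1.2 and mm10. Neither the annotation nor the way tags were counted is stated in the labels or headers. The RNA libraries hold 116732898 UMIs in MK and 105961628 in Diff_MK cells, and tag counts with no assigned tag made up 18.2% and 10.1%.

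Cells and tags were joined on the first 16 bases of the cell barcode. Counts were summed per clone and library, and genes were filtered within each fit with filterByExpr (minimum count 10). Sums were scaled by TMM and tested with the quasi-likelihood test of edgeR 4.0.16 in R 4.3.3, with Benjamini-Hochberg adjustment and a threshold of 0.05. The difference between libraries was fitted with clone as a block, and the trend on the log2 share ratio over 46 clones. Levels are CPM of the summed counts. DESeq2 1.42.0, limma 3.58.1, other scalings, filters, clone rules and leaving out each clone were alternatives. Permutation tests over clones used 100000 resamples. Python 3.11.15, numpy 2.4.6, pandas 2.3.3 and scipy 1.17.1 were used, and the fits were tested on simulated data. Doublets were treated only through the rule on the leading tag. Gene positions are from GENCODE on GRCm38, the build called mm10.

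Clones, gene lists (38) and tests were chosen with earlier results of these data known. The rule for named genes leaves out predicted genes and those of mitochondria or ribosomal proteins. It takes the 8 with the smallest p in each direction in the MK and Diff_MK fits and the 5 in the fit of the difference, 2 members of each list by level and 1 by p, and a few set by name. The other genes that passed in the fit of the difference (Tchh, Ilk, Plod2, Fzd4 and 9530059O14Rik), and Sprr2d and Psca among the most variable genes, lie outside this rule and were named after their values were seen. Clones of 1 culture are not independent cultures. Of the 14 genes that passed in the fit of the difference, 1 is not reported here.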

Additional observations from a re-analysis of the deposited data

Results flagged for a closer look

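The test of the difference between the contrast in MK cells and that in Diff_MK cells passed for 14 genes (edgeR with clone as a block), and those reported are given here as the MK minus the Diff_MK log2 fold change of expanding over shrinking clones. The differences were 2.24 for Lor, 1.66 for Tchh and 1.001 for Hes6. They were 2.36 for Fzd4, a Wnt receptor, 1.36 for Plod2, a collagen lysyl hydroxylase, 1.40 for Mgat4a, a glycosyltransferase, and 0.74 for Ilk. Pkdcc had 3.55, Tmem62 1.37 and 9530059O14Rik 2.28. Pkdcc, Fzd4 and 9530059O14Rik lay near the floor in Diff_MK clones of 3 or more cells. Pkdcc had 20 UMIs in all expanding and 24 in all shrinking ones, with 8 of 12 and 11 of 17 clones at 0. Fzd4 had 43 and 30 UMIs, with 5 and 7 clones at 0, and 9530059O14Rik had 55 and 38, with 3 and 7 at 0. These genes entered the test through sums of shrinking clones, where they were highest, so the direction of their differences is not independent of the filter. The fit also held shrinking sums of 1 Diff_MK cell, those of Tag20 and Tag42, with 9064 and 11902 UMIs. The 3 negative differences were -0.68 for Dsc3, -0.88 for Gpr137b and -0.85 for Ppp1r10. None of these 3 genes passed with RLE scaling. With clones of 10 or more Diff_MK cells, 0 genes passed in edgeR and 629 had an unadjusted p under 0.05.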

How the results depend on the processing

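In MK cells the count of 0 held under 34 leave-one-out fits and all alternatives except 2. These were a single random draw of 10 cells per clone, with 2 calls (Sprr1b and Krt16), and ratios of 2 against 0.5, with 1 (Sprr1b). In Diff_MK cells the 0 calls became 40 with DESeq2, 30 with all genes of 10 or more counts, 16 with tags identical in full, and 0 to 64 when 1 clone was left out. For the difference between libraries, the 14 calls became 394 with limma-voom (13 of the 14 shared), 67 with all genes of 10 or more counts (14 shared) and 0 with clones of 10 or more Diff_MK cells, an alternative chosen after seeing the data. With RLE scaling they became 15 (11 shared), and Dsc3, Gpr137b and Ppp1r10 no longer passed. The trend gave 4 calls with all genes of 10 or more counts. Of the technical measures, 1 passed when medians were compared. No result reversed. The causes were not tested. The labels carry no replicate numbers, so no block on them could be fitted, and the pairing used was that of a clone's MK and Diff_MK sums in the fit of the difference. The 5 shrinking clones under 3 Diff_MK cells were left out of the Diff_MK fit, and clones of 3 to 9 cells limit its precision.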

Other observations

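Among expanding MK clones the UMIs of Ccl2, a monocyte chemokine, lay mostly in Tag2, while among shrinking ones they were more spread. Expanding Tag2 had 226 of the 256 Ccl2 UMIs of all expanding clones (99.4 CPM), and shrinking Tag48 had 20 of the 79 of all shrinking clones (79.4 CPM). Lcn2, a secreted siderophore-binding protein, ran from 0 through 21.5 to 101 CPM in expanding and from 0 through 24.6 to 214 CPM in shrinking MK clones. Prl2c2, a placental prolactin family gene, ran from 8.51 through 37.5 to 62.8 CPM in expanding and from 0 through 14.7 to 104 CPM in shrinking Diff_MK clones.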
